A study of Ovis aries with 20 samples.

Results

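The transcripts described here are those of the sodium pump subunit beta 1 (ATP1B1) and of connexin 43 (GJA1), measured in the newborn lamb heart. Every probe that the scanner files name for one of these genes, by symbol, protein name, description or RefSeq accession, was taken, whatever its values, which gave 6 of the 15008 probes on the array for 2 of the 866 genes that could be named on it. They were 2 probes for ATP1B1 and 4 for GJA1. Each of the 6 was well above background on all 20 arrays, so none was lost to the filter on dim probes. The arrays fell into 4 groups of 5, which were the left ventricle (LV) of cortisol lambs, the LV of control lambs, the interventricular septum of cortisol lambs and the septum of control lambs. All lambs were singletons, and their ages at collection ran from 10 to 480 min after birth. Cortisol lambs came from ewes that received 1 mg/kg cortisol per day from about gestation day 115 onwards, and control lambs from ewes that received the vehicle over the same period. The steroid was thus given to the ewe and not to the lamb, and the age at collection of each lamb was not used here. Sample names carry the word telemetry for all 20 arrays, cortisol and control alike. Whole pieces of tissue were measured, so that fewer cells of a type and less RNA per cell cannot be told apart.

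The sodium pump is a membrane enzyme that moves sodium out of the cell and potassium in at the cost of ATP. Its beta subunit is needed for folding and for delivery of the enzyme to the membrane. In heart muscle the pump keeps the sodium gradient on which calcium removal by sodium-calcium exchange depends, and it is the target of cardiac glycosides. Connexin 43 is the main gap junction protein of working ventricular muscle, where its channels at the intercalated discs pass current from cell to cell.

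The probes differ in where they lie, which matters because probes of the same gene did not always point the same way. Each probe is 60 bases long. The array files list the probes as unmapped, so no genome position is given for any of them, and chromosomes are those of the gene in the RefSeq annotation of the sheep assembly ARS-UI_Ramb_v3.0.

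The 2 ATP1B1 probes target bases 2449 to 2508 and 2509 to 2568 of the ATP1B1 transcript (chromosome 12), next to each other with no gap. The last 30 bases of probe 1 and the first 30 of probe 2, which meet at that junction, are given to show that the probes read neighbouring stretches of 1 transcript.
ATP1B1 probe 1: agactgatgttgaatgttgtctacagtgca
ATP1B1 probe 2: aaatccatgttctaacatatgtcataattg

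The 4 GJA1 probes come from 2 expressed sequence tags (GJA1 lies on chromosome 8). Probes 1 and 2 carry the name connexin 43 and target bases 685 to 744 and 725 to 784 of one tag. Probes 3 and 4 carry the symbol GJA1 and target bases 502 to 561 and 702 to 761 of the other tag. Probes 1 and 2 overlap by 20 bases, written in capitals in the last 30 bases of probe 1 and the first 30 of probe 2, and so are not independent reporters. Probes 3 and 4, printed whole, share no run longer than 6 bases with each other, and neither shares a run longer than 7 bases with probe 1 or 2. Probe 1 has a stop codon in each of its 3 frames, while the other 3 probes have at least 1 open frame.
GJA1 probe 1: aacacagattTGAAATAATGCACACGTGGT
GJA1 probe 2: TGAAATAATGCACACGTGGTgttcaaattt
GJA1 probe 3: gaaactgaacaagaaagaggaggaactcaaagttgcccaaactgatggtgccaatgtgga
GJA1 probe 4: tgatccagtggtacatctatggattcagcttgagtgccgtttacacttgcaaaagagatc

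Values are log2 of the processed spot intensity minus log2 of the array's own 75th percentile, so that 0 is the level of that percentile. Between 57.9% and 72.1% of spots were well above background per array, and the 75th percentile ranged from 99.2 to 441 intensity units. The labelled tissue was checked on muscle markers that the array names. CRYAB, a small heat shock protein of muscle, MB, myoglobin, TPM1, tropomyosin 1, and MYH7, the slow heart myosin, were well above background on 20 of 20 arrays. Spots flagged as outliers gave no value, so in LV CRYAB had a value on 2 of 5 control and 3 of 5 cortisol arrays. MB had one on 3 and 3, and TPM1 on 3 and 2. Of 8 skeletal muscle markers 3 were named. The skeletal myosins MYH2 and MYH1 were well above background on 2 and 1 of 20 arrays, but TNNC2, the fast skeletal troponin C, was so on 20 of 20. TNNC2 differed between cortisol and control lambs by 2.13 and 2.00 (log2) with its 2 probes in LV and by 1.91 and 1.95 in septum (limma, unadjusted p = 0.00829 to 0.019, adjusted p = 0.877 in LV and 0.818 in septum), and its part in the results was not tested. None of 6 listed atrial markers could be named. Arrays lay on 4 slides. Slide 3 held 6 LV arrays and slide 1 held 6 septum arrays, each with 3 cortisol and 3 control arrays. Slide 2 held 3 LV arrays and 4 septum arrays, and slide 4 held only the LV array of cortisol lamb 4.

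The first question was whether raised maternal cortisol went with another level of ATP1B1, the beta subunit that carries the pump to the membrane. Neither of its probes passed the test in LV or septum, and both varied little. Over the 20 arrays, probe 1 ranged from 5.56 to 6.30 and probe 2 from 5.69 to 6.76, that is a span of 1.67-fold and 2.11-fold. In LV, probe 1 read 6.03, 6.11, 6.28, 5.56 and 5.94 in cortisol lambs 1 to 5, against 6.22, 5.70, 5.72, 6.07 and 5.86 in control lambs 1 to 5. The lowest and the highest of the 10 were both cortisol lambs, so the groups overlapped fully. In septum, probe 1 read 6.04, 6.09, 6.03, 5.79 and 6.23 in cortisol lambs 1 to 5, against 6.30, 5.92, 5.90, 5.97 and 5.99 in control lambs 1 to 5. Control lamb 1 was the highest of the 10 and cortisol lamb 4 the lowest.

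For probe 1 the LV means were 5.99 ± 0.27 in cortisol lambs and 5.91 ± 0.23 in control lambs (SD, n = 5 each). The difference, cortisol minus control, was 0.07 ± 0.19 (SE) on the log2 scale, with a 95% interval of -0.34 to 0.48 (limma's moderated test, Benjamini-Hochberg adjusted p = 0.96). A probe passed the test at an adjusted p under 0.05, adjusted over all probes tested. In septum the means were 6.03 ± 0.16 in cortisol lambs and 6.01 ± 0.16 in control lambs, a difference of 0.02 ± 0.15 with an interval of -0.31 to 0.35 (limma, adjusted p = 0.976). As folds the intervals ran from 0.791 to 1.40 in LV and from 0.809 to 1.27 in septum.

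Probe 2 of ATP1B1 read 6.41, 6.42, 6.73, 5.69 and 6.43 in LV of cortisol lambs 1 to 5, against 6.66, 6.23, 6.38, 6.36 and 6.36 in LV of control lambs 1 to 5. Cortisol lamb 4 was lowest, as it was for probe 1, and the other 4 cortisol lambs lay above 4 of the 5 control lambs. In septum it read 6.48, 6.66, 6.74, 6.23 and 6.70 in cortisol lambs 1 to 5, against 6.76, 6.30, 6.38, 6.45 and 6.42 in control lambs 1 to 5. Here too 4 cortisol lambs lay above 4 control lambs, while cortisol lamb 4 was the lowest and control lamb 1 the highest. The differences were -0.06 ± 0.21 in LV, with an interval of -0.51 to 0.39 (limma, adjusted p = 0.969), and 0.10 ± 0.16 in septum, with an interval of -0.25 to 0.45 (limma, adjusted p = 0.88). The sign of both ATP1B1 probes depended on the scaling. With quantile normalization probe 1 was at -0.17 in LV and -0.17 in septum, and probe 2 at -0.35 in LV and -0.15 in septum. In the deposited values probe 2 was at -0.27 in both regions.

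**Figure D1:**
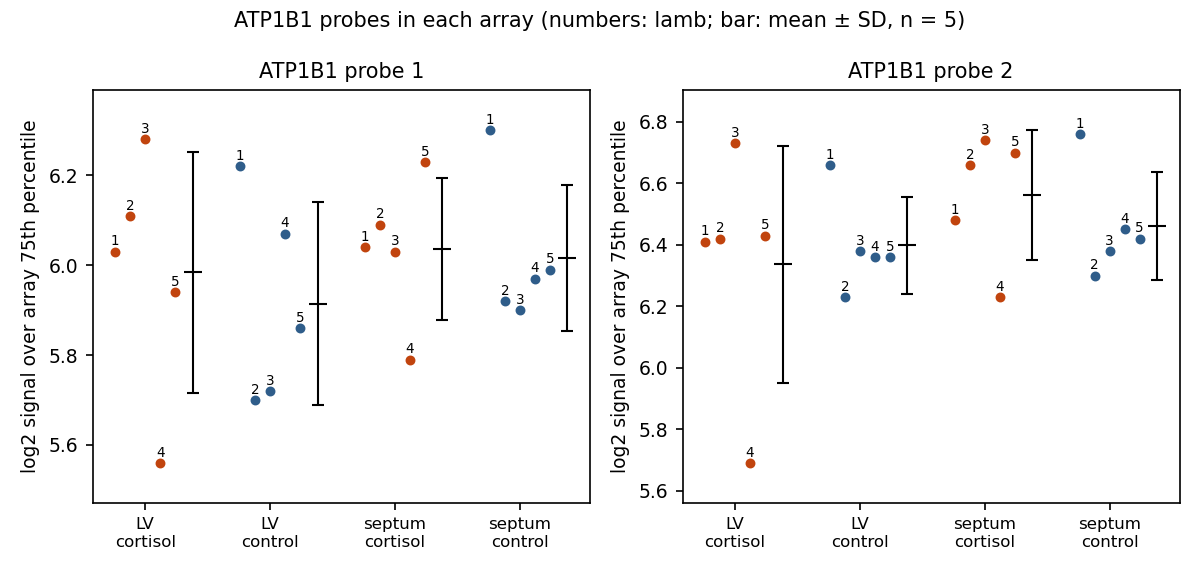
Level of each ATP1B1 probe (log2 of signal over the array's 75th percentile) in LV and septum of cortisol and control lambs. Points are single arrays numbered by lamb, and the bar beside each group is its mean ± SD (n = 5). The groups overlap for both probes, and cortisol lamb 4 is the lowest array of LV at 5.56 and 5.69.

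Connexin 43 was followed by 4 probes, of which 3 had higher means in cortisol lambs than in control lambs in each region and probe 2 did not, and none passed the test. In LV, probe 1 read 0.14, -0.02, 0.12, 1.13 and 0.83 in cortisol lambs 1 to 5, against 1.06, 0.18, -0.24, -0.24 and 0.41 in control lambs 1 to 5. Cortisol lambs 4 and 5 and control lamb 1 stood above the rest. In septum it read 0.85, 0.24, 0.36, 0.53 and 1.09 in cortisol lambs 1 to 5, against 1.00, 0.11, -0.09, -0.01 and 0.22 in control lambs 1 to 5. All 5 cortisol lambs lay above 4 of the 5 control lambs there, and control lamb 1 lay above 4 of the cortisol lambs. The difference was 0.20 ± 0.31 in LV, with an interval of -0.47 to 0.88 (limma, adjusted p = 0.929), and 0.37 ± 0.25 in septum, with an interval of -0.17 to 0.91 (limma, adjusted p = 0.818).

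Probe 2, which shares 20 bases with probe 1, read 2.57, 2.55, 2.75, 2.11 and 3.41 in LV of cortisol lambs 1 to 5, against 3.67, 2.94, 2.32, 2.46 and 2.87 in LV of control lambs 1 to 5. Control lamb 1 was the highest and cortisol lamb 4 the lowest. In septum it read 3.13, 2.41, 2.47, 2.61 and 3.58 in cortisol lambs 1 to 5, against 3.47, 3.03, 2.15, 2.65 and 2.98 in control lambs 1 to 5. The groups overlapped in both regions. Its difference was -0.17 ± 0.30 in LV, with an interval of -0.83 to 0.48 (limma, adjusted p = 0.94), and -0.01 ± 0.29 in septum, with an interval of -0.66 to 0.63 (limma, adjusted p = 0.994).

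Probe 4, from the other sequence tag, read 1.61, 1.48, 1.50, 0.70 and 2.00 in LV of cortisol lambs 1 to 5, against 2.58, 1.09, 0.38, 0.65 and 1.01 in LV of control lambs 1 to 5. Control lamb 1 was the highest of the 10, and apart from it 4 of the 5 cortisol lambs lay above the 4 other control lambs. In septum it read 1.60, 1.54, 1.27, 0.95 and 1.78 in cortisol lambs 1 to 5, against 2.09, 1.07, 0.36, 0.87 and 1.27 in control lambs 1 to 5. Control lamb 1 was again the highest and control lamb 3 again the lowest. The difference was 0.31 ± 0.39 in LV, with an interval of -0.54 to 1.17 (limma, adjusted p = 0.905), and 0.30 ± 0.30 in septum, with an interval of -0.35 to 0.95 (limma, adjusted p = 0.833). Leaving out 1 lamb at a time moved the LV difference of probe 4 between 0.12, without control lamb 3, and 0.67 ± 0.27, without control lamb 1 (limma, unadjusted p = 0.0329, adjusted p = 0.63).

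Probe 3, from the same tag as probe 4, gave a similar picture. It ranged from 0.53 to 1.48 in cortisol LV and from -0.02 to 2.10 in control LV, and from 0.47 to 1.22 in cortisol septum and from 0.07 to 1.60 in control septum. Control lamb 1 held the upper end of both control ranges. Its difference was 0.32 ± 0.37 in LV (limma, adjusted p = 0.896) and 0.24 ± 0.30 in septum (limma, adjusted p = 0.852). Within slide 3 the LV differences of probes 1 to 4 were -0.25, -0.40, 0.11 and 0.09, and within slide 2, with 1 cortisol array against 2 control arrays, they were 0.74, 0.82, 1.12 and 1.30. In septum they were 0.12, -0.38, 0.11 and 0.12 within slide 1, and 0.75, 0.53, 0.42 and 0.55 within slide 2. The slide 2 values were the higher ones for all 4 probes in both regions, a difference between slides that was not tested.

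**Figure D2:**
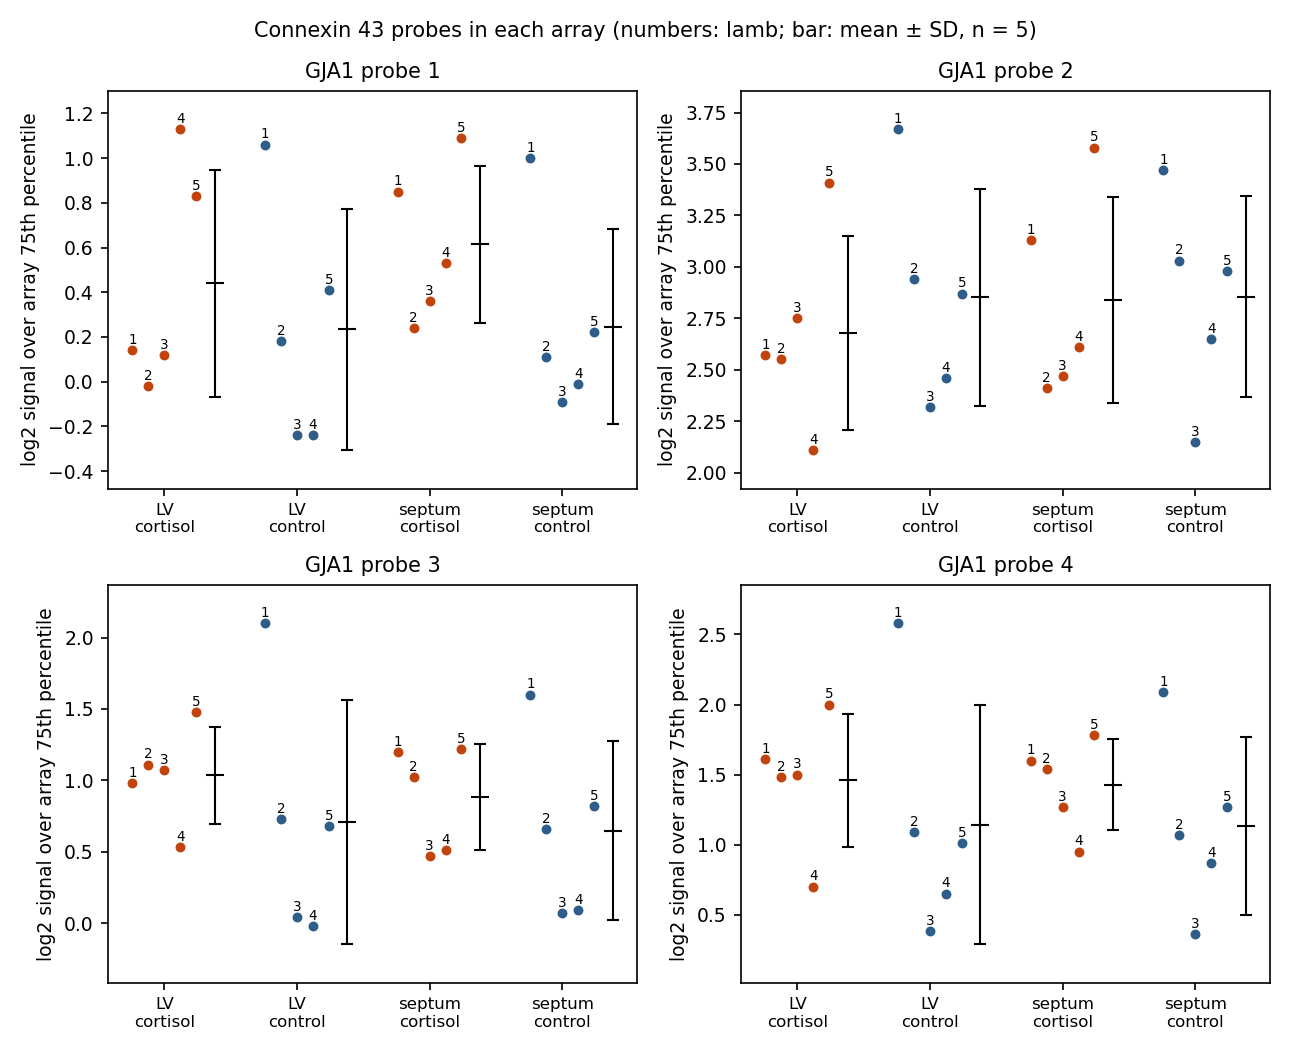
Level of each connexin 43 probe (log2 of signal over the array's 75th percentile) in LV and septum of cortisol and control lambs, with points numbered by lamb and the mean ± SD beside each group (n = 5). Control lamb 1 is the highest control lamb in both regions for each probe, for example at 2.58 in LV on probe 4, and the groups overlap for every probe.

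In the count over the whole array, 0 of the 6 probes passed for cortisol against control in LV, where 0 of 9791 tested probes passed (0%). At an unadjusted p under 0.05 (limma) the counts were 0 of 6 and 508 of 9791 (5.19%). In septum 0 of 6 passed, with 0 of 10369 overall (0%), and the unadjusted counts were 0 of 6 and 385 (3.71%). The smallest unadjusted p among the 6 was 0.399 in LV and 0.16 in septum (limma). The median difference over the 6 probes was 0.14 in LV and 0.17 in septum, against -0.01 and 0.03 over all tested probes. Regardless of sign, the median size of a difference over all tested probes was 0.2 in LV and 0.21 in septum. The 6 probes are of 2 genes, 4 of them of GJA1, so they are not independent values and no shift of the set can be read from their median.

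**Figure D3:**
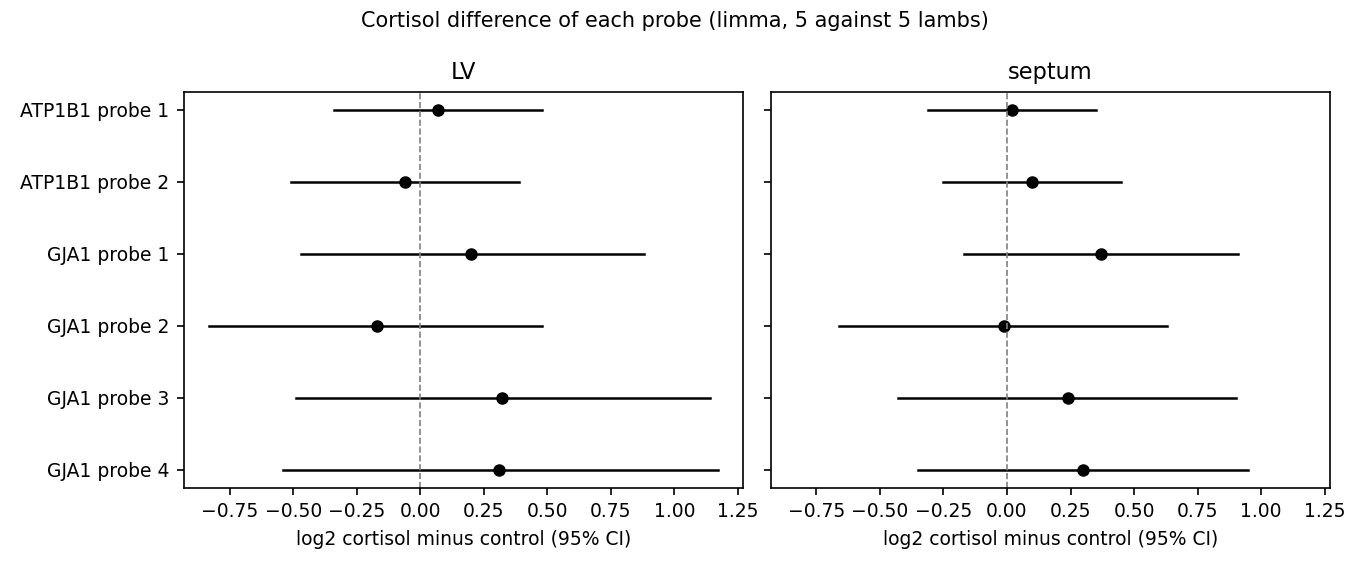
Difference of cortisol from control lambs for each probe (log2, points) with its 95% interval (lines), in LV on the left and septum on the right, from limma with 5 lambs in each group. All 12 intervals include 0, and they are narrowest for the ATP1B1 probes, for example -0.31 to 0.35 for probe 1 in septum.

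Because the differences of GJA1 probes had different signs, the difference between their cortisol effects was itself tested. The signs had been seen in these same data before the test was chosen. That choice favours small unadjusted p values for pairs with probe 2, so they cannot be read at face value. The log2 difference between a pair of probes was taken within each array, which removes the scaling of the array, and cortisol and control lambs were compared by an exact two-sided permutation test over 252 arrangements. The smallest p this allows is 0.00794. Among 14 tests (7 pairs in 2 regions), 0 passed after Benjamini-Hochberg adjustment and 3 had an unadjusted p under 0.05, all of GJA1 and all with probe 2 as a partner. The share under 0.05 among probe pairs of other genes on the array was not computed.

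In LV, probe 2 minus probe 4 of GJA1 was 0.96, 1.07, 1.25, 1.41 and 1.41 in cortisol lambs 1 to 5, against 1.09, 1.85, 1.94, 1.81 and 1.86 in control lambs 1 to 5. The 5 cortisol lambs lay below 4 of the 5 control lambs, and control lamb 1 lay among them. The means were 1.22 ± 0.20 in cortisol lambs and 1.71 ± 0.35 in control lambs, so the cortisol effects of the 2 probes differed by -0.49 (exact permutation p = 0.0317, adjusted p = 0.185). Probe 2 minus probe 3 differed by a like amount in LV, -0.50, with means of 1.64 ± 0.18 in cortisol lambs and 2.14 ± 0.34 in control lambs (exact permutation p = 0.0397, adjusted p = 0.185). Without control lamb 1 the groups no longer overlapped for either pair, and both differences were -0.64 (exact permutation, adjusted p = 0.111 for each). That lamb was picked after the values had been seen. Leaving out any other single lamb gave -0.41 to -0.57 for probe 2 minus probe 3 (exact permutation p = 0.0397 to 0.0714). For probe 2 minus probe 4 it gave -0.42 to -0.54 (exact permutation p = 0.0317 to 0.0635). The 2 pairs are not independent, as probes 3 and 4 correlated at r = 0.975 in LV. In septum the same pairs differed by -0.31 and -0.25, with exact permutation p = 0.159 and 0.254.

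The third such pair was that of the overlapping probes 1 and 2 of GJA1. In septum, probe 1 minus probe 2 was -2.28, -2.17, -2.11, -2.09 and -2.49 in cortisol lambs 1 to 5, against -2.46, -2.92, -2.24, -2.66 and -2.76 in control lambs 1 to 5. All 5 cortisol lambs lay above the control mean of -2.61, and the groups overlapped. The difference of effects was 0.38 (exact permutation p = 0.0397, adjusted p = 0.185). With other processing it was 0.44 with normexp background correction, 0.45 with quantile normalization and 0.41 in the deposited values (exact permutation p = 0.325, 0.0238 and 0.0714). In LV the difference of effects was also 0.38 (exact permutation p = 0.206), and there a single array made most of it. Probe 1 minus probe 2 was -0.98 in cortisol lamb 4, the array alone on slide 4, while the other 9 LV arrays lay between -2.76 and -2.43.

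By comparison, probes 3 and 4 of GJA1, from 1 tag, kept nearly the same distance. Probe 3 minus probe 4 averaged -0.42 ± 0.17 in cortisol LV and -0.43 ± 0.15 in control LV, and -0.54 ± 0.16 in cortisol septum and -0.49 ± 0.18 in control septum (exact permutation p = 0.897 and 0.563). For the 2 adjacent ATP1B1 probes the effects differed by 0.13 in LV and -0.08 in septum (exact permutation p = 0.175 and 0.214).

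**Figure D4:**
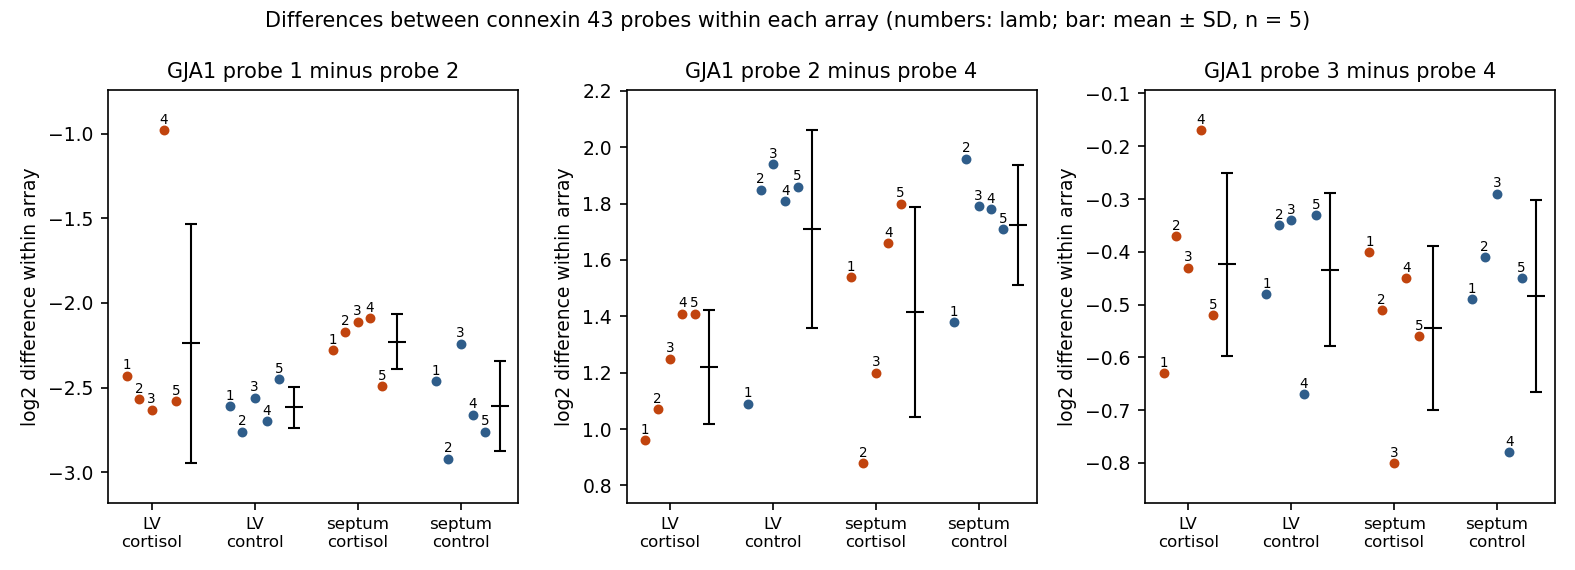
Log2 difference between 2 connexin 43 probes within each array, for 3 pairs, in LV and septum of cortisol and control lambs (points numbered by lamb, mean ± SD beside them, n = 5). Probe 2 minus probe 4 lies at 0.96 to 1.41 in cortisol LV and at 1.81 to 1.94 in 4 of 5 control LV arrays, with control lamb 1 at 1.09, and cortisol lamb 4 stands apart at -0.98 in the left panel.

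Probes of a gene were also set against each other from lamb to lamb. Over the 10 arrays of a region, 11 of 14 pairs passed (permutation test of Pearson's r with 100000 resamples, adjusted over the 14). The share of passing pairs among probes of different genes was not computed, so the count cannot be called particular to probes of 1 gene. Among 432 named genes, NFAT5 was most like ATP1B1 probe 2 over the arrays of both regions together (r = 0.833). Within regions NFAT5 had r = 0.816 in LV and 0.873 in septum. In LV it was not the most alike gene, as CRY1 had r = 0.878 there. For GJA1 probe 2 the most alike gene over both regions together was ACVR2A (r = 0.793), with r = 0.837 in LV and 0.831 in septum. ATP1B1 probes 1 and 2 correlated at r = 0.845 and rho = 0.818 in LV (permutation p = 0.00019 and 0.00581) and at r = 0.879 and rho = 0.903 in septum (permutation p = 0.00037 and 0.00082). The adjusted p of r was 0.000887 in LV and 0.00129 in septum, and without the 2 arrays farthest from the median r was 0.755 and 0.851. GJA1 probes 3 and 4 correlated at r = 0.975 and rho = 0.939 in LV (permutation p = 2e-05 and 0.0003, adjusted p of r 0.00028), and at r = 0.946 and rho = 0.964 in septum (permutation p = 8e-05 and 9e-05, adjusted p of r 0.00056). Without the 2 farthest arrays they stood at 0.976 and 0.917.

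Probe 2 of GJA1 went less closely with probe 4 than probe 3 did. In LV r was 0.84 and rho 0.77 (permutation p = 0.0025 and 0.0128, adjusted p of r 0.00583), and without control lamb 1 and cortisol lamb 5 r was 0.504 (exact permutation p = 0.205). As deviations from the group means r was 0.933 over the 10 LV arrays. Of the 11 pairs that passed, 6 had an exact permutation p of 0.05 or more without the 2 arrays farthest from the median. Over the 8 arrays left, these 6 pairs had r of 0.453 to 0.683, so their relations were not shown without those 2. They were GJA1 probes 2 and 3 and probes 2 and 4 in LV (exact permutation p = 0.261 and 0.205), and probes 1 and 2, 1 and 4, 2 and 3 and 2 and 4 in septum (p = 0.209, 0.0615, 0.0651 and 0.126). The other 5 were the ATP1B1 pair and GJA1 probes 3 and 4 in both regions, and GJA1 probes 1 and 3 in septum. Probe 1 of GJA1 did not pass with probes 2, 3 or 4 in LV, where r was 0.447, 0.609 and 0.502 (permutation p = 0.191, 0.0619 and 0.138, adjusted p = 0.191, 0.0722 and 0.149) and rho 0.418, 0.418 and 0.455 (permutation p = 0.231, 0.235 and 0.191). Without control lamb 1 and cortisol lamb 4 the 3 values of r were 0.948, 0.761 and 0.73. All 14 pairs passed without cortisol lamb 4 alone, and 7 passed without control lamb 1. Within the 6 LV arrays of slide 3, r was 0.895 for the ATP1B1 pair, 0.968 for GJA1 probes 1 and 2, 0.799 for probes 2 and 4 and 0.981 for probes 3 and 4. Within the 6 septum arrays of slide 1 the same pairs stood at 0.772, 0.715, 0.571 and 0.956.

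Septum and LV were compared next, within each treatment. Arrays of the same treatment and number in both regions deviated together over all probes and were taken as 1 lamb. None of the 6 probes passed in either treatment. In cortisol lambs 0 of 6 passed, with 0 of 10069 overall (0%), and in control lambs 0 of 6 passed, with 1 of 10069 overall (0.00993%). At an unadjusted p under 0.05 (limma) the counts were 0 of 6 and 392 (3.89%) in cortisol lambs, and 0 of 6 and 792 (7.87%) in control lambs. With the lamb as a random block, still 0 of the 6 passed, while the count over all probes was 313 in cortisol lambs and 1090 in control lambs. As paired differences within lambs the counts over all probes were 0 in cortisol lambs and 2033 in control lambs, again with 0 of the 6.

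Probe 2 of ATP1B1 was the one with the most even direction. Its septum value was above its LV value in 5 of 5 cortisol lambs and 4 of 5 control lambs. The difference was 0.23 ± 0.17 in cortisol lambs, with an interval of -0.14 to 0.59, and 0.07 ± 0.17 in control lambs, with an interval of -0.30 to 0.43 (limma, adjusted p = 1 and 0.994). With the lamb as a random block the cortisol value was 0.23 ± 0.09 (limma, unadjusted p = 0.0241, adjusted p = 0.182). Cortisol lamb 4, alone on its LV slide, gave the widest gap, 0.55, and with normexp background correction the sign turned to -0.09. The value was 0.03 with slide as a fixed block, 0.03 within slide 2 and 0.01 with quantile normalization. Probe 1 of ATP1B1 differed by 0.05 ± 0.15 in cortisol lambs and 0.10 ± 0.15 in control lambs (limma, adjusted p = 1 and 0.986).

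The GJA1 probes lay close to 0 for region as well, and 0 of 4 passed. Probes 1 to 4 stood at 0.18, 0.17, -0.15 and -0.03 for septum minus LV in cortisol lambs, and at 0.01, 0.00, -0.06 and -0.01 in control lambs, with SE between 0.29 and 0.36. The widest interval, that of probe 4, ran from -0.78 to 0.73 in cortisol lambs and from -0.77 to 0.75 in control lambs. These SE and intervals come from a fit that did not pair the 2 regions of a lamb. Within lambs, septum minus LV of probe 4 ran from -0.23 to 0.25 in cortisol lambs (SD 0.20, n = 5). In control lambs it ran from -0.49 to 0.26 (SD 0.30, n = 5). Region and slide were largely confounded, and within slide 2, which holds both regions, probe 4 differed by -0.63 in cortisol lambs and 0.12 in control lambs (limma, adjusted p = 1 and 0.955).

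Whether the cortisol difference itself differed between septum and LV was asked with an interaction test. There 0 of 6 probes passed, with 0 of 10069 overall (0%), and at an unadjusted p under 0.05 the counts were 0 of 6 and 38 of 10069 (0.377%). The septum minus LV difference of the cortisol effect ranged from -0.09 for GJA1 probe 3 to 0.17 for GJA1 probe 1. Its interval was -0.51 to 0.40 for ATP1B1 probe 1 and -1.09 to 1.05 for GJA1 probe 4. This fit did not pair the regions of a lamb either. By the order of the 4 group means, ATP1B1 probe 2 ran from cortisol LV, through control LV and control septum, to cortisol septum at the top. GJA1 probe 4 was lowest in control septum and highest in cortisol LV. These orders only describe the means. The comparisons between neighbours that were run did not pass, and control LV against cortisol septum, neighbours for GJA1 probe 4, was not tested.

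Levels in the 2 regions of a lamb were then set against each other, a comparison chosen after the values had been seen. Since same-numbered arrays were taken as 1 lamb from their correlation over all probes, a probe's r was read against that of the 9929 tested probes with no missing value. Their median r was 0.722, and 54.4% of them were positive and passed (permutation tests with 100000 resamples, adjusted over the 9929). All 6 probes passed as well, which most tested probes did. GJA1 probe 4 had r = 0.958 and rho = 0.939 (permutation p = 3e-05 and 0.0002, adjusted p of r 0.000868), and r was 0.943 without the 2 lambs farthest from the median. An r of 0.958 or more was reached by 3.68% of all probes, and it was the highest r of the 6. For GJA1 probes 1, 2 and 3 the shares were 49.1%, 34% and 12.8%. ATP1B1 probe 2 had r = 0.817 and rho = 0.939 (permutation p = 5e-05 and 0.00024, adjusted p of r 0.00107), a value that 33.4% of probes reached, and r was 0.841 without 2 lambs. The other 4 probes had r of 0.702 to 0.913 (adjusted permutation p of r 0.00198 to 0.0444), values that 12.8% to 53% of probes reached. Without the 2 farthest lambs r was 0.528 for GJA1 probe 2 (exact permutation p = 0.18) and 0.708 for ATP1B1 probe 1 (exact permutation p = 0.052). Among the 6 lambs whose LV arrays lay on slide 3 and septum arrays on slide 1, r was 0.968 for GJA1 probe 4 and 0.917 for ATP1B1 probe 2. Over the 20 arrays GJA1 probe 4 ranged 4.65-fold.

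**Figure D5:**
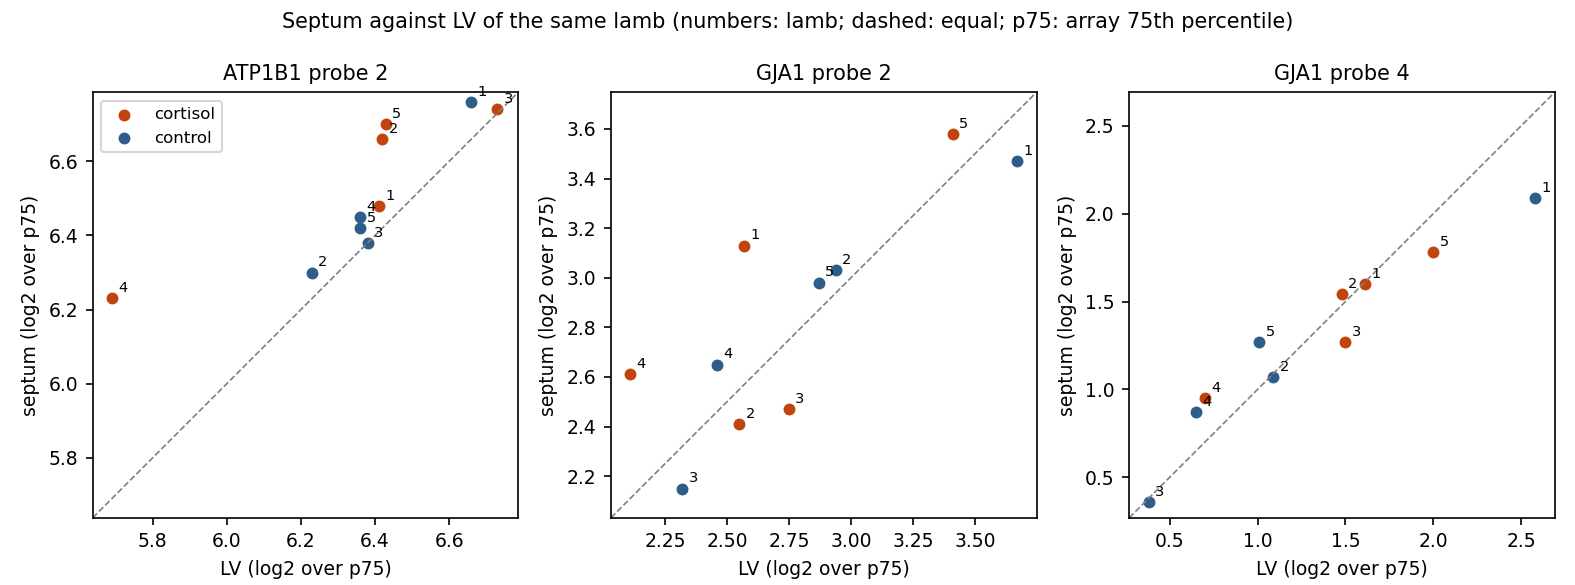
Septum level against LV level of the same lamb for ATP1B1 probe 2 and GJA1 probes 2 and 4 (both axes log2 of signal over the array's 75th percentile), with cortisol and control lambs in separate colours, numbered by lamb, and a dashed line of equality. GJA1 probe 4 runs along the line (r = 0.958), and ATP1B1 probe 2 lies above it in 9 of 10 lambs.

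Few relatives of these genes could be read on the array. In a list of 14 sodium pump subunits and FXYD regulators, 2 were named. The one beside ATP1B1 was described in the array files as the pump's gamma subunit, while its gene identifier belongs to FXYD6, a small membrane protein of the family that modulates the pump. FXYD6 differed by 0.37 ± 0.30 in LV and 0.50 ± 0.38 in septum with its brighter probe (cortisol minus control; limma, adjusted p = 0.883 and 0.818). With its other probe it differed by 0.73 ± 0.31 in LV and 0.76 ± 0.44 in septum (limma, unadjusted p = 0.036 and 0.112, adjusted p = 0.877 and 0.818). Of 24 connexins and pannexins, GJA1, GJA4 and GJB2 were named. GJA4, connexin 37 of the vessel wall, differed by 0.22 ± 0.20 in LV and 0.15 ± 0.26 in septum (limma, adjusted p = 0.883 and 0.892). GJB2, connexin 26, which is known from epithelia and the inner ear, was well above background on 0 of 20 arrays with each of its 5 probes. Of 17 intercalated disc partners only CAV1, the caveolar scaffold, was named, at 0.21 ± 0.34 in LV and 0.30 ± 0.34 in septum (limma, adjusted p = 0.937 and 0.842).

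Corticosteroid and kinase regulators of sodium transport were named for 11 of 26 genes and tested for 8, of which 0 passed in either region. In LV 5 of 8 were positive, with a median of 0.11, and in septum 6 of 8, with a median of 0.20. Over all tested probes 49.1% were positive in LV and 54.7% in septum. Of these, NR3C1, the glucocorticoid receptor, stood at 0.66 ± 0.28 in LV, PPP2CA, a catalytic subunit of protein phosphatase 2A, at 0.49 ± 0.21 and HSD11B2, the enzyme that inactivates cortisol, at 0.98 ± 0.53 (limma, adjusted p = 0.877 for each). HSD11B2 was well above background on only 3 of 5 cortisol and 2 of 5 control LV arrays, so its value rests partly on signals at background. In septum PPP2CA stood at 0.35 ± 0.15, HSD11B1, which regenerates cortisol, at -0.57 ± 0.34, and PRKACA, the catalytic subunit of protein kinase A, at 0.25 ± 0.19 (limma, adjusted p = 0.818 for each). Of 17 AP-1, thyroid and sympathetic regulators 6 were named and 5 tested. All 5 were positive in both regions, with medians of 0.34 in LV and 0.86 in septum, and 0 passed. They were not tested as a set, and a common rise cannot be read from their signs. FOS and JUNB, immediate early factors of the AP-1 complex, stood at 1.67 ± 1.21 and 0.91 ± 0.60 in LV and at 1.47 ± 1.29 and 1.18 ± 0.72 in septum, and ADRB1, the beta 1 adrenergic receptor, at 0.34 ± 0.42 in LV and 0.86 ± 0.52 in septum (limma, lowest adjusted p = 0.877 in LV and 0.818 in septum). In the list of sodium and calcium transport, 2 of 31 genes were named and 0 tested.

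Likeness to other named genes was described over the 20 arrays, which share lambs and slides, among 432 genes well above background on all of them. The 3 genes most like ATP1B1, by its probe 2, were NFAT5 (r = 0.833), PRKAR1A (r = 0.785) and PRKAA2 (r = 0.776). For GJA1, by probe 2, they were ACVR2A (r = 0.793), BAD (r = 0.701) and NR3C2 (r = 0.669).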

How the data were processed

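Total RNA of LV and septum was hybridised to 20 one-colour sheep arrays. Per the file headers and the submitters' processing notes, Agilent Feature Extraction 10.1.1.1 made a processed intensity for each spot, with background subtracted and detrended. Deposited log2 values, made by the authors separately in each region by steps not given in the sources used here, were an alternative for the 2 cortisol comparisons. Processed intensity was scaled to each array's 75th percentile, taken as log2 and averaged over a probe's spots, leaving out spots flagged as outliers. Probes well above background on 5 of 10 arrays of a region, or 10 of 20, were tested with limma 3.58.1 (statmod 1.5.0, R 4.3.3), two-sided. The threshold was 0.05 after Benjamini-Hochberg adjustment across every probe in the fit. Other genes are given by their brightest tested probe. Probe pairs were tested with Python 3.11.15, numpy 2.4.6 and scipy 1.17.1. Names came from RefSeq tables of ARS-UI_Ramb_v3.0, the files' symbols and a hand-made list of protein names, for 1400 of 15008 probes. The fit was tested on simulated data: for cortisol against control in LV it recovered 43 of 100 probes changed by 1 (log2) and 84 of 100 changed by 2, with 14 false calls over both sizes, among 9791 probes. Same-numbered LV and septum arrays correlated in their deviations from group means over all probes at 0.449 to 0.724 in cortisol lambs and 0.645 to 0.813 in control lambs, own number highest in 10 of 10, and were taken as lambs. One gene is not reported here. Members and gene lists were chosen with earlier results of these data known. All probes of both genes are named, with the 3 members of each pathway list with the smallest unadjusted p, every measured member of the first 2 lists and the 3 most alike genes. Cell type lists were used only to check the tissue. Each group's 5 arrays limit the precision.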

Additional observations from a re-analysis of the deposited data

Results flagged for a closer look

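Within-group outliers were sought by Dixon's ratio of gap to range in groups of 5 (critical value 0.71), which chance passes in about 1 of 20 groups. Of 24 groups of probe values, 2 held an array that stood apart, both in control septum. ATP1B1 probe 1 was high in control lamb 1 (6.30, ratio 0.781), as was GJA1 probe 1 (1.00, ratio 0.714).

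Of 28 groups of differences between probes, 4 held such an array. In LV of cortisol lamb 4, GJA1 probe 1 was high against its 3 partners, at -0.98 minus probe 2 (ratio 0.879), 0.60 minus probe 3 (ratio 0.722) and 0.43 minus probe 4 (ratio 0.829). In LV of control lamb 1, GJA1 probe 2 minus probe 4 was low at 1.09 (ratio 0.85).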

How the results depend on the processing

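None of the 6 probes passed under any alternative run, in 306 values with another setting and 240 with a lamb left out, but 46 and 29 of these had the other sign. For cortisol minus control in LV, ATP1B1 probe 1 was -0.04 with normexp, -0.17 with quantile normalization and -0.16 in the deposited values. With slide as a fixed block ATP1B1 probe 2 was 0.09. Within slide 2 ATP1B1 probe 2 was 0.06 and GJA1 probe 2 was 0.82, and within slide 3 ATP1B1 probe 2 was 0.11 and GJA1 probe 1 was -0.25. In septum, ATP1B1 probes 1 and 2 were -0.04 and -0.09 with normexp, -0.17 and -0.15 with quantile normalization and -0.16 and -0.27 in the deposited values. Probe 1 was -0.01 with a percentile over detected probes and -0.01 within slide 1, and within slide 2 GJA1 probe 2 was 0.53.

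For septum minus LV in cortisol lambs, normexp gave -0.18, -0.09, -0.01 and -0.17 for ATP1B1 probes 1 and 2 and GJA1 probes 1 and 2. Quantile normalization gave -0.17 for ATP1B1 probe 1, the slide block -0.02 for GJA1 probe 2, and slide 2 alone -0.02 and -0.31 for GJA1 probes 1 and 2. In control lambs normexp gave -0.18 and -0.12 for ATP1B1 and -0.05, -0.16 and 0.02 for GJA1 probes 1, 2 and 4. Quantile normalization gave -0.16, -0.19, 0.00 and -0.04 for ATP1B1 probes 1 and 2 and GJA1 probes 1 and 2. The percentile over detected probes gave -0.01 and -0.02, and the fixed slide block -0.07 and -0.04, for GJA1 probes 1 and 2. The random slide block gave -0.05 and 0.02 for GJA1 probes 1 and 4. Within slide 2 GJA1 probes 1 to 4 were -0.03, -0.03, 0.08 and 0.12. For the difference of the cortisol effect, GJA1 probe 2 was -0.01 with normexp, and within slide 2 it was -0.28. The cause of these turns was not tested.

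Leaving out 1 lamb at a time gave, for cortisol minus control in LV, 0.00 to 0.18 and -0.16 to 0.10 for ATP1B1 probes 1 and 2 and 0.03 to 0.41, -0.36 to 0.03, 0.14 to 0.67 and 0.12 to 0.67 for GJA1 probes 1 to 4. In septum it gave -0.03 to 0.09 and 0.06 to 0.18 for ATP1B1 probes 1 and 2 and 0.25 to 0.56, -0.20 to 0.14, 0.09 to 0.47 and 0.10 to 0.53 for GJA1 probes 1 to 4. Septum minus LV in cortisol lambs was -0.01 to 0.12 for ATP1B1 probe 1 and -0.10 to 0.02 for GJA1 probe 4, and in control lambs -0.05 to 0.06, -0.04 to 0.06, -0.11 to 0.05 and -0.08 to 0.11 for GJA1 probes 1 to 4. The difference of the cortisol effect was -0.11 to 0.02 for ATP1B1 probe 1, and -0.20 to 0.02 and -0.14 to 0.05 for GJA1 probes 3 and 4.

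Over all probes, septum against LV in control lambs had 1 call, against 0 with normexp, with slide as a fixed or random block and within slide 2, 4 among probes detected on all arrays, and 0 with each lamb left out. With the replicate block it had 1090 (lamb as a random block) and 2033 (paired differences). In cortisol lambs the count was 0, against 2 with quantile normalization, 2 with the percentile over detected probes, 1 among probes detected on all arrays, 313 with the lamb as a random block, and 0 to 8 with a lamb left out, 8 without cortisol lamb 5. Cortisol and control arrays of the same number were not paired: 4 of 5 such pairs in LV and 3 of 5 in septum exceeded 0.1, and a replicate block on these numbers left the count at 0. It gave -0.17 ± 0.27 for GJA1 probe 2 in LV. The cortisol and interaction counts were 0 under every alternative run. Of the 14 pairs of probes, 7 to 14 correlated with a lamb left out, 7 without control lamb 1, and 0 had cortisol effects that differed in any setting run. The deposited values were not used for regions, which were normalized apart (medians 9.49 to 9.54 in septum and 6.71 to 6.72 in LV). With 5 arrays a group, the interval of -0.54 to 1.17 for GJA1 probe 4 in LV limits what could be seen.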

Other observations

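One unnamed probe of the array is the reverse complement of ATP1B1 probe 1 over 54 bases, and so would read the opposite strand. It was well above background on 20 of 20 arrays. Its means were 1.38 ± 0.87 in cortisol LV and 1.60 ± 0.24 in control LV, and 1.09 ± 0.53 in cortisol septum and 0.72 ± 0.25 in control septum (SD, n = 5 each). Cortisol minus control was -0.22 ± 0.36 in LV and 0.37 ± 0.25 in septum (limma, adjusted p = 0.937 and 0.818). Septum minus LV was -0.88 ± 0.33 in control lambs (limma, unadjusted p = 0.0141, adjusted p = 0.454), where ATP1B1 probe 1 differed by 0.10 ± 0.15, and -0.29 ± 0.33 in cortisol lambs. These values did not pass the test.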
